A study of Mus musculus with 9 samples.

Results

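Transcripts of 8 genes for proteins of saliva and of airway mucus were followed across 9 RNA-seq libraries of sorted mouse medullary thymic epithelial cells. They are Dcpp1, Dcpp2, Dcpp3 and Sbpl on chromosome 17, and Bpifa1, Bpifa2, Bpifb1 and Bpifb9a on chromosome 2. The 8 genes were chosen by name out of 23004 gene symbols with an entry, with their low values in the library labelled Aire-KO already known. Each is represented by the RefSeq entry with the highest summed value in the Aire pair. All 8 had an entry in every table, and all 8 passed the minimum of 10 normalised counts summed over a pair. Because their values in the Aire pair led to the choice, the values in both pairs are given as a description, with no test.

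Cells came from 4-week-old B6 mice and were sorted from pooled thymi. One pair held MHC-II-high cells (mTEChi) from Aire-/- mice, in the library labelled Aire-KO, and mTEChi from wild-type (WT) mice. The other pair held mTEChi and MHC-II-low cells (mTEClo) of the same WT mice, from a pool of 4 thymi as in the Aire pair. The remaining libraries were WT mTEChi left for 0, 1.5, 3, 6 or 12 h in actinomycin D at 1 uM, which blocks transcription. Each group is 1 library, so an interval printed with a fold is an exact 95% interval from reads and covers counting error only. A TruSeq kit was used for the 5 untreated libraries, and SMARTer amplification with Nextera for those at 1.5 to 12 h. Against 0 h, the kit therefore cannot be told apart from the treatment.

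Medullary thymic epithelial cells transcribe many genes that otherwise belong to single peripheral tissues, and present the products to developing T cells. Aire is a nuclear protein of mTEChi that raises the transcription of a large share of these genes. Among the 8 genes, the Bpif members encode secreted proteins with the fold of bactericidal/permeability-increasing protein (BPI), a lipid-binding fold shared by the PLUNC proteins of the upper airway, nose and mouth. Bpifa1 encodes SPLUNC1, an abundant protein of airway surface liquid, and Bpifa2 encodes parotid secretory protein of saliva. Bpifb1 encodes LPLUNC1 of airway goblet cells and glands, and Bpifb9a encodes vomeromodulin of the nasal mucosa. BPIFB1 and BPIFB9 are known as targets of the autoimmune lung disease that follows loss of Aire. The Dcpp genes encode demilune cell and parotid protein, secreted by the serous cells of salivary glands, and Sbpl encodes a protein like spermine binding protein. Both carry a jacalin-like lectin domain.

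The 60 bases before the annotated start of each gene are shown because the genes move together in the Aire pair and because these stretches share a short motif. They are from RefSeq, build GRCm38.p6, printed 5′ to 3′ on the strand of the gene, and capitals mark the TATAA nearest to the start. Bpifb1 has a pair of annotated starts.
Dcpp1, chr17:23880816-23880875, + strand: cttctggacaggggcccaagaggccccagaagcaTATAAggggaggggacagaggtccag
Dcpp2, chr17:23898662-23898721, + strand: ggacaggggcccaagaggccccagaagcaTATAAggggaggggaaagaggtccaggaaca
Dcpp3, chr17:23917398-23917457, + strand: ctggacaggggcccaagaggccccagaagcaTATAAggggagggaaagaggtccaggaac
Sbpl, chr17:23955274-23955333, - strand: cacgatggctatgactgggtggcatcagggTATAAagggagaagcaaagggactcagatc
Bpifa1, chr2:154142820-154142879, + strand: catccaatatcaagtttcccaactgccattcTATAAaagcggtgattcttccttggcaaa
Bpifa2, chr2:154008216-154008275, + strand: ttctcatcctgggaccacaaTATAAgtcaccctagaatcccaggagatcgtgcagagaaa
Bpifb1, upstream start, chr2:154190758-154190817, + strand: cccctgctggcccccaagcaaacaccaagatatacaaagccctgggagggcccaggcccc
Bpifb1, downstream start, chr2:154200320-154200379, + strand: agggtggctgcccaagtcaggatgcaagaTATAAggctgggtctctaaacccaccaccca
Bpifb9a, chr2:154257819-154257878, + strand: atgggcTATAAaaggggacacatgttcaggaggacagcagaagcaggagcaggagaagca

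TATAA on the strand of the gene was found in 8 of these 9 stretches, and for every one of the 8 genes at 1 start at least. Its first base lay 26, 31, 29 and 30 bases before the start of Dcpp1, Dcpp2, Dcpp3 and Sbpl. It lay 29 bases before the start of Bpifa1, 40 before Bpifa2, 31 before the downstream start of Bpifb1 and 54 before Bpifb9a. Of all 32851 promoters in the same table, 5.57% held TATAA in the last 60 bases on the strand of the gene, and 7.24% on either strand. The stretches of Dcpp1, Dcpp2 and Dcpp3 are near-copies of each other, so their matches are not separate. Among 16 promoters of related BPI and jacalin genes, 4 held it. Sbp, the spermine binding protein gene beside Sbpl, held it at none of its annotated starts. Its fold in the Aire pair was 0.00264. The motif and the length of the window were picked after the sequences had been read, so the count is a description. The dinucleotide CG occurred 1 to 5 times in the 300 bases around the starts of the 8 genes, against a median of 7 and a lower quartile of 3 over all promoters and a median of 4 over the 16 promoters of related genes.

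The Dcpp genes are near-identical copies, which limits how far their reads can be told apart. In the mm9 transcripts of GENCODE, Dcpp1 and Dcpp2 were identical at 577 of 611 aligned bases (94.4%), Dcpp1 and Dcpp3 at 94.4%, and Dcpp2 and Dcpp3 at 96.2%. Reads had been trimmed to 50 bases. Of the 50-base windows of each transcript, 43.3% in Dcpp1, 33.5% in Dcpp2 and 36.5% in Dcpp3 also occur unchanged in another copy. The longest coding stretch common to the 3 copies spans 109 bases from position 408 of the Dcpp1 coding sequence, counted from 1 at its start codon, and a read inside it fits all 3 genes.
Dcpp1, Dcpp2 and Dcpp3: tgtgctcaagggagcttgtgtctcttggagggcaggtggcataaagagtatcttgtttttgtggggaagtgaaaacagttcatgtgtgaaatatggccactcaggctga
The 60 coding bases with the most differences start at position 274 and differ between copies at 15 positions, marked in capitals, so a read from them can be placed.
Dcpp1: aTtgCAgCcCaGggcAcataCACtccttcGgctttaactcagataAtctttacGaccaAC
Dcpp2: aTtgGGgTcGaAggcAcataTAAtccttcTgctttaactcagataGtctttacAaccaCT
Dcpp3: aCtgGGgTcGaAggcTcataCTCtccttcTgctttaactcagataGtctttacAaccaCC

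Sbpl shared 39.3% of its 50-base windows with Sbp, the gene for spermine binding protein beside it, and none with Dcpp1. Bpifb9a and its neighbour Bpifb9b were identical at 99.3% of aligned bases, and 71.4% of the Bpifb9a windows occur in Bpifb9b. Bpifa1 shared no window with Bpifa5, to which it was identical at 75.7% of bases. How reads that fit several places were counted is not given in the sources used here, so the separate values of the Dcpp copies, of Sbpl and Sbp, and of Bpifb9a and Bpifb9b are uncertain.

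Summed reads ranged between 74161592 and 195444567 in the 5 untreated libraries, and between 1746825 (12 h) and 21124165 (1.5 h) in the 4 treated ones. Of 25401 entries found in both kinds of table, 5.17%, 17.8%, 31.5% and 26.8% had no read in the libraries treated for 1.5, 3, 6 and 12 h. Epcam, an epithelial marker, had 311 to 544 CPM in the 5 untreated libraries. CPM is a read count divided by the summed reads of its library and scaled by 1e6. Other marker genes of these cells varied more. Krt5 had 647 to 4014 CPM and Krt14 314 to 1579 CPM in the same libraries, both highest in mTEClo. Cd80, Cd74 and H2-Aa were lowest in mTEClo. Aire had 661 CPM in the library labelled Aire-KO and 259 CPM in WT mTEChi. These reads are counted over the whole gene and do not test the disrupted part of it. Sample names are missing from the column headers of the Aire pair, and the direction follows the study's own code.

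In untreated WT mTEChi, the level per length fell into a wide range (RPKM, which is CPM divided by exon length in kilobases, over the WT mTEChi of the Aire pair, the mTEChi of the other pair and the 0 h library). Bpifa1 was highest at 263 ± 155 RPKM (SD, n = 3 libraries), followed by Sbpl at 58.4 ± 8.71, Dcpp1 at 31.1 ± 4.32, Dcpp3 at 22.3 ± 1.09 and Dcpp2 at 17.2 ± 3.12 RPKM. Bpifb1 reached 13.6 ± 4.18, Bpifb9a 5.77 ± 0.908 and Bpifa2 2.87 ± 0.251 RPKM. The ranges of neighbours in this order did not overlap, except those of Dcpp2 and Bpifb1. The libraries come from tables that were made separately, so levels across them are a description.

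Bpifa1 stood apart from the other 7 by its spread among these 3 libraries. It had 463 CPM in WT mTEChi of the Aire pair, 122 CPM in mTEChi of the other pair and 287 CPM at 0 h, a 3.79-fold range. Bpifb1 came next at 24.1, 15.1 and 28.9 CPM, a 1.91-fold range. The other 6 genes varied between 1.10-fold (Dcpp3) and 1.41-fold (Dcpp2). A summed level of Scgb1a1 and Cyp2f2, markers of airway club cells, was 195, 59.5 and 150 CPM in the same 3 libraries. A summed level of 4 markers of airway goblet cells was 118, 51.3 and 117 CPM. A summed level of 4 markers of airway ciliated cells was 96.9, 97.6 and 144 CPM. As sums, the club and goblet lists, but not the ciliated list, were lowest in the library in which Bpifa1 and Bpifb1 were lowest. Single genes differed from these sums. Of the ciliated list, Foxj1 (76.1, 67.2 and 81.7 CPM) and Rsph1 (6.36, 4.85 and 9.49 CPM) were also lowest in that library, and Dnah5 and Ccdc39 were not. Spdef of the goblet list (6.49, 4.49 and 3.54 CPM) was lowest at 0 h. The part of such cells in these differences was not tested.

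**Figure D1:**
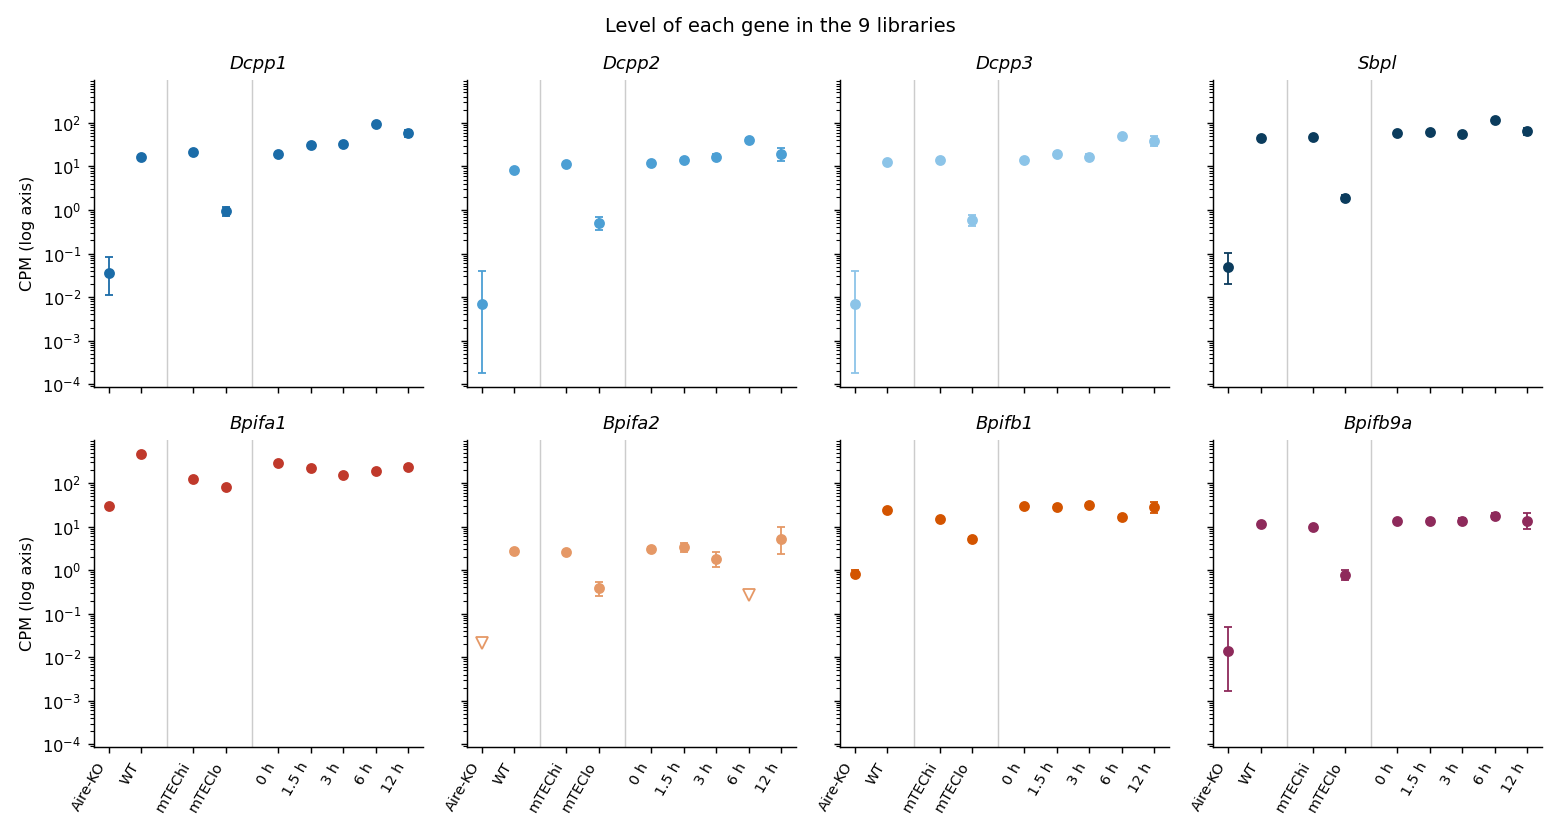
CPM of each gene (log axis) in the 9 libraries, 1 point a library with an exact 95% Poisson interval that covers counting error only. Open triangles mark 0 reads and stand at the level of 3 reads. The library labelled Aire-KO lies below every other library for 7 of the genes, and for Bpifa2, which also had 0 reads at 6 h, it has 0 reads.

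In the library labelled Aire-KO, the 3 Dcpp genes and Sbpl were close to absent. Dcpp1 had 5 reads (0.0350 CPM) in the library labelled Aire-KO and 1706 reads (16.4 CPM) in WT mTEChi. In normalised counts, that is reads divided by the size factor of the authors, this is a fold of 0.00251 (0.000813 to 0.00586), or 399-fold lower. Dcpp2 had 1 read in the library labelled Aire-KO and 870 in WT mTEChi, a ratio of 0.000983 (2.49e-05 to 0.00549). Dcpp3 likewise had 1 read in the library labelled Aire-KO and 1344 in WT mTEChi, a ratio of 0.000636 (1.61e-05 to 0.00355). With the reads of the 3 copies summed, the level was 655-fold lower (317 to 1629.5). The sum does not depend on which copy a read was given to. A read counted for several copies would enter it more than once, and the interval would then be too narrow. Sbpl had 7 reads in the library labelled Aire-KO and 4811 in WT mTEChi, 804-fold lower (390 to 1999.6).

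The Bpif genes divided into a pair that was nearly absent from the library labelled Aire-KO and a pair that was lower but still measured. Bpifb9a had 2 reads in the library labelled Aire-KO and 1217 in WT mTEChi, a ratio of 0.00141 (0.000170 to 0.00509). Bpifa2 had 0 reads in the library labelled Aire-KO and 281 in WT mTEChi, at least 109.5-fold lower when the 0 is set to 3 reads, while the exact 95% interval reaches down to 88.5-fold. Bpifb1 had 117 reads (0.818 CPM) in the library labelled Aire-KO and 2514 (24.1 CPM) in WT mTEChi, 25.1-fold lower (20.9 to 30.5). A second Bpifb1 entry, with 112 reads in the library labelled Aire-KO and 2416 in WT mTEChi, shares most of these reads. Bpifa1 had 4239 reads (29.6 CPM) in the library labelled Aire-KO and 48346 (463 CPM) in WT mTEChi, 13.3-fold lower (12.9 to 13.8). The intervals of Bpifa1 and Bpifb1 lie apart from each other and from those of the other 6 genes. On CPM, the folds in their own pair were 0.0640 for Bpifa1 and 0.0339 for Bpifb1. Against mTEChi of the other pair, on CPM, Bpifa1 was 4.13-fold and Bpifb1 18.4-fold lower, both less than against the WT library of their own pair. Against the 0 h library, on CPM, the folds were 0.103 for Bpifa1 and 0.0283 for Bpifb1, the latter lower than in its own pair.

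All 8 genes were at least 3-fold lower in the library labelled Aire-KO, where 21.1% of 26761 entries tested were that much lower. Since this contrast led to the choice of the genes, nothing is read from that count. The median fold was 0.00196 over the 8 genes and 0.978 over all entries. With the 3 untreated WT mTEChi libraries taken as replicates and whole reads recovered from the tables (100% of values whole within 0.1), edgeR called 2066 of 23916 entries lower in the library labelled Aire-KO, and DESeq2 3747 of 25270. A lower level in sorted cells can stand for fewer cells that express the gene or less RNA in each, which bulk libraries cannot tell apart. Dendritic cell and macrophage markers summed to 344 CPM in the library labelled Aire-KO and 646 CPM in WT mTEChi. Endothelial markers summed to 18.2 CPM in the library labelled Aire-KO and 45.7 CPM in WT mTEChi, thymocyte markers to 26.4 and 44.9 CPM, and fibroblast markers to 136 and 74.5 CPM. The fibroblast genes differed. Dcn (86.5 and 40.7 CPM) and Postn (40.3 and 12.1 CPM) were higher in the library labelled Aire-KO. Col1a1 (7.57 and 18.9 CPM) and Pdgfra (1.75 and 2.75 CPM) were lower. Of the thymocyte list, Rag1 went against the sum (3.84 and 3.17 CPM). The part of these cells in the folds was not tested.

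Genes related by sequence were followed in the same way. This list was chosen with earlier results of these data known. Of 13 further genes with the BPI fold, 10 were at least 3-fold lower in the library labelled Aire-KO, where 21.1% of all entries tested were. None was that much higher, and their median fold was 0.0516. The lowest 5 were almost absent. Bpifb4, whose rat counterpart is known from the olfactory mucosa, had 1 read in the library labelled Aire-KO and 361 in WT mTEChi. Bpifb3 had 2 against 516 and Bpifb5 2 against 451. Bpifb9b had 6 against 1521 and Bpifa5 5 against 1144. Bpifa3 (4 against 60 reads), Bpifa6 (14 against 232) and Bpifb6 (10 against 374) were 17.5-fold, 19.4-fold and 43.7-fold lower. Bpifb2 (70 against 466 reads) was 7.78-fold lower, and Bpi, the neutrophil granule protein that gives the family its name, had a fold of 0.228 (0.157 to 0.323).

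The 3 that stayed within 3-fold were not members of the PLUNC cluster. Lbp, which encodes the lipopolysaccharide-binding protein of plasma, had a fold of 0.491 (0.443 to 0.545). Pltp, the phospholipid transfer protein of plasma, had a fold of 1.72 (1.65 to 1.79). Bpifc, which lies on chromosome 10, had 33.0 CPM in the library labelled Aire-KO and 47.0 CPM in WT mTEChi, a fold of 0.823 (0.790 to 0.856). Both jacalin relatives were lower. Sbp, an androgen-dependent secretory protein gene of the mouse prostate, had 7 reads in the library labelled Aire-KO and 2266 in WT mTEChi. Zg16, which encodes a lectin of pancreatic zymogen granules and intestinal mucus, had 55 reads against 2151, a fold of 0.0219 (0.0164 to 0.0286).

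Wider lists of secreted proteins were read beside the 8 genes. They too were chosen with earlier results of these data known, so their counts are a description. Of all 26761 entries tested, 21.1% were at least 3-fold lower in the library labelled Aire-KO. Of 20 genes of salivary secretions, 17 passed the minimum and 15 of these were at least 3-fold lower in the library labelled Aire-KO, with a median fold of 0.0454. The most highly expressed of them, Lpo, which encodes lactoperoxidase, had 324 CPM in the library labelled Aire-KO and 298 CPM in WT mTEChi, a fold of 1.27 (1.25 to 1.29). Klk1, a glandular kallikrein, was at a fold of 0.106, Klk1b22, a further kallikrein, at 0.0454, and Dmbt1, a mucosal scavenger receptor protein of saliva, at 0.0183. All 17 airway genes tested were at least 3-fold lower, with a median fold of 0.0588. Reg3g, an antibacterial lectin, had 169 CPM in the library labelled Aire-KO and 1869 CPM in WT mTEChi, a fold of 0.106 (0.105 to 0.108). Wfdc2, a secreted protease inhibitor-like protein, had a fold of 0.193, Clca1 of goblet cell mucus 0.0882 and Ltf, which encodes lactoferrin, 0.0124.

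**Figure D2:**
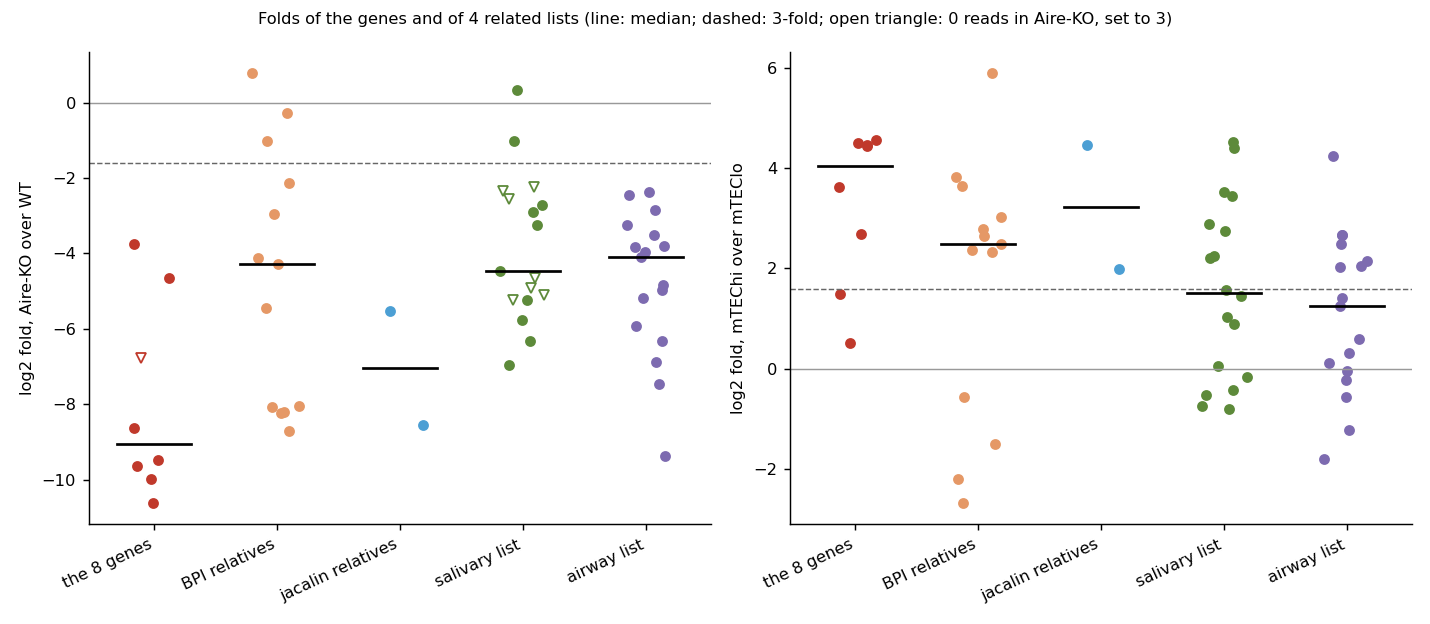
log2 fold of each gene tested, for the 8 genes and 4 related lists, in the Aire pair (left) and in the pair of mTEChi and mTEClo (right). Each point is 1 gene with 1 library a group, black lines are medians, the dashed line is 3-fold and open triangles are genes with 0 reads in the library labelled Aire-KO, set to 3 reads. On the left only Lpo and Pltp lie above 0, and on the right the salivary and airway lists lie on both sides of it.

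The genes lie in 2 clusters, whose neighbours were read next (mm9 positions of GENCODE). On chromosome 2, 13 genes with the BPI fold lie on the + strand between 153700781 and 154146382, among them Bpifa2 (153834001 to 153841815), Bpifa1 (153968616 to 153974955), Bpifb1 (154016554 to 154046105) and Bpifb9a (154083590 to 154096981). All 13 were at least 3-fold lower in the library labelled Aire-KO, with folds between 0.00141 and 0.128. Of all entries tested 21.1% were at least 3-fold lower, and of the 12 nearest genes tested, 6 on each side, 2 were. These were Sun5, a sperm head protein gene next to Bpifb2 (7 reads in the library labelled Aire-KO, 41 in WT mTEChi), and 1700003F12Rik (0 and 37 reads). The remaining 10 had folds up to 1.88, for E2f1, and Cdk5rap1, the nearest gene beyond Bpifb9b, had a fold of 1.02.

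On chromosome 17, Dcpp1 (24017843 to 24019820), Dcpp2 (24035689 to 24037754), Dcpp3 (24054425 to 24056408) and Sbp lie on the + strand, and Sbpl (24090052 to 24091886) on the - strand. All 5 were at least 3-fold lower, with folds between 0.000636 and 0.00264. Here 5 of the 12 flanking genes were lower as well, and all 5 encode trypsin-like serine proteases. Prss32 (fold 0.0167) and Prss21 (0 reads in the library labelled Aire-KO, 45 in WT mTEChi) lie before Dcpp1. Prss30 (fold 0.114), Prss22 (0.0997) and Prss27 (0.0399) lie after Sbpl. The proteases Prss33 and Prss41, farther out, had folds of 1.92 and 1.07, and the ubiquitous genes Srrm2, Elob, Kctd5, Pdpk1 and Amdhd2 had folds between 0.760 and 1.87.

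**Figure D3:**
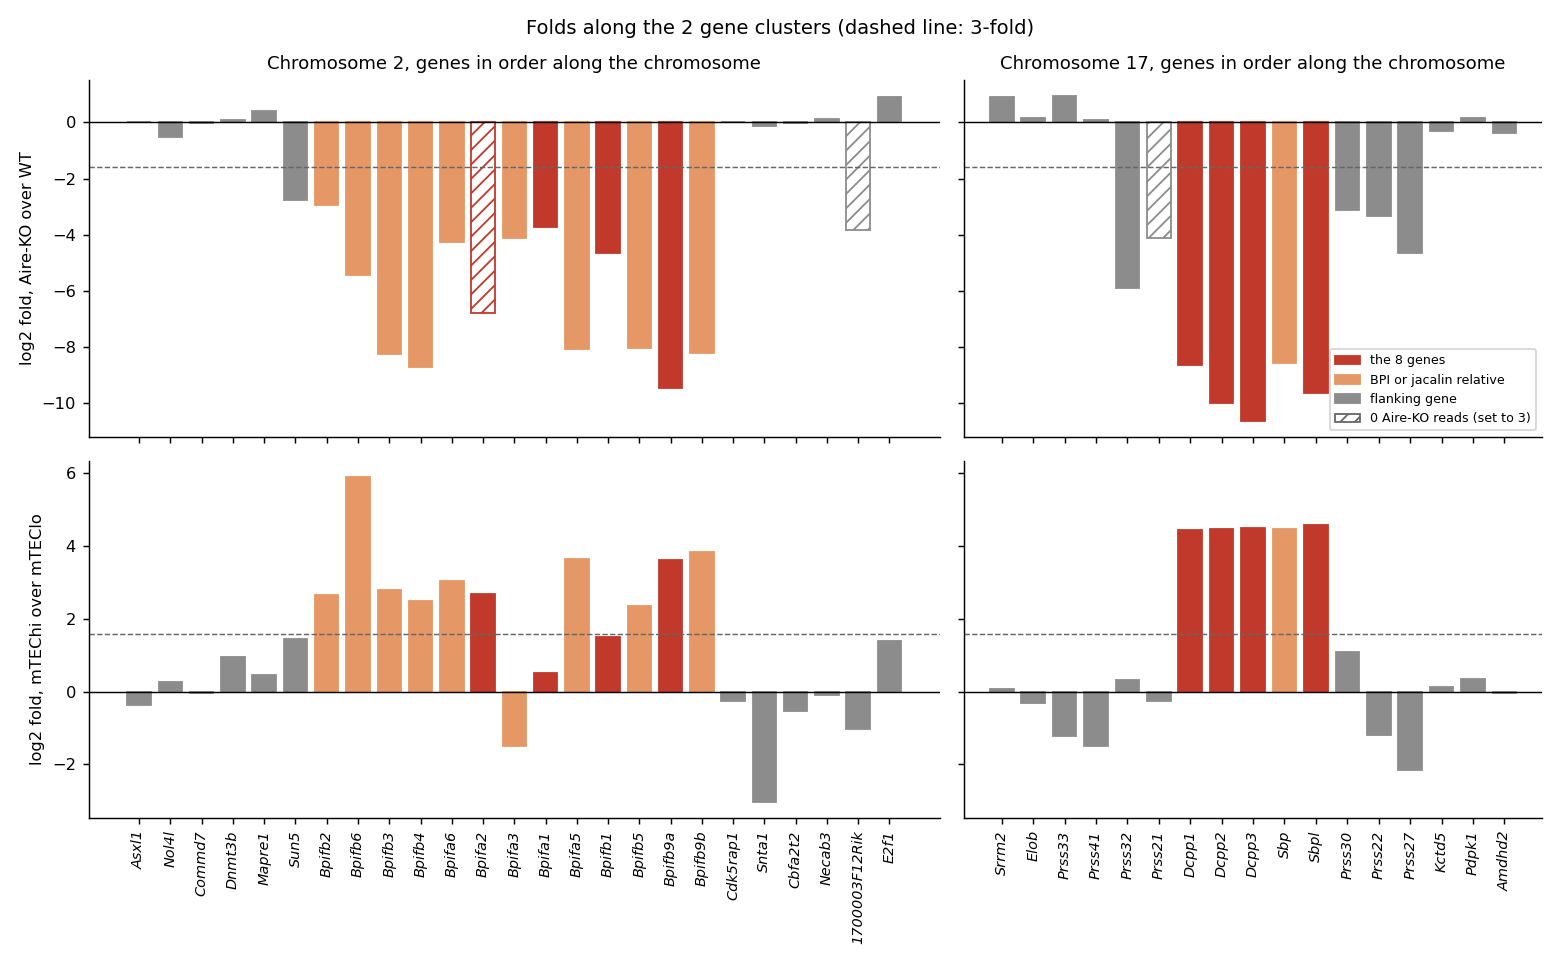
log2 fold of genes in their order along chromosomes 2 and 17, Aire-KO over WT (top) and mTEChi over mTEClo (bottom), with 6 flanking genes tested on each side and the dashed line at 3-fold. Each bar is 1 library against 1, and hatched bars are genes with 0 reads in the library labelled Aire-KO, set to 3 reads. All BPI and jacalin genes of the clusters lie below the top dashed line, while Bpifa1, Bpifb1 and Bpifa3 stay under the bottom one.

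Between mTEChi and mTEClo of the same mice, 6 of the 8 genes were at least 3-fold higher in mTEChi, where 11.8% of 29212 entries tested were. The median fold was 17.1 over the 8 genes and 1.01 over all entries. The genes of chromosome 17 had similar folds. The Dcpp copies share sequence with each other, and Sbpl with Sbp, so these folds are not fully separate measurements. Dcpp1 had 4229 reads (21.6 CPM) in mTEChi and 70 (0.944 CPM) in mTEClo, 21.8-fold higher (17.2 to 28.0). The folds were 22.0 for Dcpp2, 22.6 for Dcpp3, 23.6 for Sbpl (47.4 CPM in mTEChi, 1.91 CPM in mTEClo) and 22.2 for Sbp. Their intervals overlapped, and the lowest of the 3 untreated WT mTEChi libraries was at least 16.7 times mTEClo for each of the Dcpp genes and Sbpl. On CPM, the folds of these 4 genes spread more with another library as mTEChi. They ran from 20.7 (Dcpp1) to 31.3 (Sbpl) with the 0 h library. With WT mTEChi of the Aire pair they ran from 16.7 (Dcpp2) to 24.1 (Sbpl).

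The genes of chromosome 2 differed from one another. Bpifb9a had 9.95 CPM in mTEChi and 0.769 CPM in mTEClo, 12.3-fold higher (9.47 to 16.3). Bpifa2 had 2.55 CPM in mTEChi and 0.378 CPM in mTEClo, 6.44-fold higher (4.40 to 9.79). Bpifb1 had 15.1 CPM in mTEChi and 5.10 CPM in mTEClo, a fold of 2.82 (2.53 to 3.14), just under the limit of 3. Bpifa1 had 122 CPM in mTEChi and 81.9 CPM in mTEClo, a fold of 1.42 (1.38 to 1.46), so that mTEClo held more of it than the library labelled Aire-KO did. The pair that kept the most reads in the library labelled Aire-KO was also the pair with the smallest folds here.

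These last 2 folds depend on the library used as mTEChi. Against WT mTEChi of the Aire pair, on CPM, Bpifa1 was 5.66-fold and Bpifb1 4.73-fold higher than in mTEClo, and all 8 genes were past 3-fold. Among the BPI relatives, 9 of 13 were at least 3-fold higher in mTEChi, Bpifb6 the most at 59.4-fold (822 reads in mTEChi, 5 in mTEClo), and Lbp and Pltp were at least 3-fold lower. Bpifa3, which neighbours Bpifa1, had a fold of 0.353 (42 reads in mTEChi, 43 in mTEClo). Of the salivary list 8 of 18 genes tested were at least 3-fold higher, and of the airway list 7 of 17, where 11.8% of all entries tested were. These lists and that of the BPI relatives were chosen with earlier results of these data known.

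Marker lists were read in the same contrast. Club cell markers summed to 59.5 CPM in mTEChi and 123 CPM in mTEClo, and goblet cell markers to 51.3 and 44.7 CPM. Within these lists the genes differed. Scgb1a1 had 27.3 CPM in mTEChi and 17.3 CPM in mTEClo, and Cyp2f2 32.2 and 106 CPM. Muc5ac had 36.2 and 12.9 CPM, Muc5b 7.15 and 23.9 CPM, and Agr2 and Spdef were nearly level. Markers of airway ciliated cells summed to 97.6 CPM in mTEChi and 66.6 CPM in mTEClo. In the Aire pair the club list was at 12.9 CPM in the library labelled Aire-KO and 195 CPM in WT mTEChi. The goblet list was at 0.944 and 118 CPM there, and the ciliated list at 85.1 and 96.9 CPM. Salivary acinar markers, 5 of 6 with an entry, summed to 3.56 CPM in the library labelled Aire-KO and 31.3 CPM in WT mTEChi. Smgc had 0 reads in the library labelled Aire-KO. Their sum was 24.1 CPM in mTEChi and 16.1 CPM in mTEClo, but the genes differed. Car6 had 16.7 CPM in mTEChi and 3.34 CPM in mTEClo, and Smgc was also higher in mTEChi. Aqp5 (4.31 CPM in mTEChi and 9.71 CPM in mTEClo), Bhlha15 and Amy1 were lower in mTEChi. Fibroblast markers reached 71.6 CPM in mTEChi and 647 CPM in mTEClo, and endothelial markers 24.5 and 191 CPM. Dendritic cell and macrophage markers went the other way, with 519.7 CPM in mTEChi and 70.0 CPM in mTEClo. Whether any of these cells account for part of the levels was not tested.

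In the actinomycin D series the question is how long each transcript lasts once transcription is blocked, as a share of all RNA that remains. The Dcpp genes took a larger share of reads at 6 h than at 1.5 h. Dcpp1 had 19.6 CPM at 0 h, then 30.6, 32.0, 92.0 and 57.8 CPM at 1.5, 3, 6 and 12 h. Against 1.5 h its log2 change was 0.06 at 3 h, 1.59 at 6 h (ratio 3.00, 2.72 to 3.32) and 0.92 at 12 h (ratio 1.89, 1.52 to 2.33). Dcpp2 had 13.9, 16.9, 40.6 and 18.9 CPM at the treated times, and Dcpp3 19.2, 16.8, 48.9 and 38.9 CPM. Sbpl had 63.0, 55.5, 115 and 63.5 CPM, 1.82-fold higher at 6 h (1.69 to 1.97) and level with 1.5 h at 12 h (ratio 1.01, 0.824 to 1.23). All 4 thus peaked at 6 h, a time held by 1 amplified library. That library had no read for 31.5% of shared entries, more than the 12 h library (26.8%), though it is deeper (11295960 against 1746825 reads). Whether the peak belongs to the transcripts or to this library was not tested. Sbp, which shares windows with Sbpl, had 17.6, 16.8, 11.7 and 32.6 CPM at the treated times and was lowest at 6 h.

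The Bpif genes followed no common course. Bpifa1 had 287 CPM at 0 h, then 226, 154, 186 and 231 CPM at 1.5, 3, 6 and 12 h. Its ratio to 1.5 h was 0.681 (0.647 to 0.717) at 3 h and 1.02 (0.918 to 1.13) at 12 h. Bpifb1 had 28.6, 31.5, 16.2 and 27.5 CPM, and its lowest ratio, at 6 h, was 0.567 (0.478 to 0.670). Bpifb9a stayed between 13.3 and 17.4 CPM at all 4 times, with 13.3 CPM at 1.5 h and 17.4 CPM at 6 h. Its near-identical neighbour Bpifb9b had 19.98 CPM at 1.5 h and 12.8 CPM at 6 h. With the reads of both summed, the level was 33.3 CPM at 1.5 h and 30.3 CPM at 6 h, a ratio of 0.910 (0.797 to 1.04), so the higher level of Bpifb9a at 6 h was not seen in the sum. Bpifa2 had 72, 25, 0 and 9 reads, or 3.41, 1.79, 0 and 5.15 CPM, and at 6 h was at least 12.8-fold lower than at 1.5 h with the 0 set to 3 reads, while the exact interval of its ratio reaches up to 0.0983. Among 4746 entries within 2-fold of its level at 1.5 h, 40.9% also had no read at 6 h.

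Set beside all 23850 entries with at least 10 reads in the series, the 8 genes had a median log2 change from 1.5 h of -0.07 at 3 h, 0.63 at 6 h and 0.24 at 12 h. The median of all entries was -0.06, -0.36 and -0.43. A higher CPM than at 1.5 h was seen in 4 of the 8 genes at 3 h, where 45.4% of entries were higher, in 5 at 6 h (38.4% of entries) and in 7 at 12 h (35.8% of entries). At 6 h the whole interval lay above 1 for 5 genes (Dcpp1, Dcpp2, Dcpp3, Sbpl and Bpifb9a), as it did for 31% of entries, and for 4 when Bpifb9a is summed with Bpifb9b. At 12 h it lay above 1 for 2 genes (Dcpp1 and Dcpp3), against 19.7% of entries, so that this count is close to the background. For entries of the level of Dcpp1 at 1.5 h, the middle part of log2 changes at 6 h, between the quartiles, ran from -0.81 to 0.37. A CPM is a share of the RNA in a library, not an amount.

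Markers of other cells also took different shares of these libraries. At 1.5, 3, 6 and 12 h, thymocyte markers summed to 43.6, 37.7, 80.3 and 131 CPM, and dendritic cell and macrophage markers to 334, 312, 482 and 651 CPM. Both sums were thus higher at 6 and 12 h than at 1.5 h, but their genes differed. Lck had 14.5 CPM at 1.5 h, 55.3 CPM at 6 h and 85.9 CPM at 12 h. Ptprc and Cd8a rose less by 6 h, while Cd4, Cd3e, Rag1 and Ptcra were lower at 6 h than at 1.5 h. In the other list Lyz2, C1qa and C1qb were higher at 6 h, and Itgax, Itgam and Xcr1 lower. Goblet cell markers summed to 155, 142, 52.8 and 112 CPM, lowest at 6 h as Bpifb1 was. The part of these cells in the changes was not tested.

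A slope on hours over the 4 treated libraries, which share 1 kit, was tested with edgeR's quasi-likelihood test and Benjamini-Hochberg adjustment over 20652 entries. None of the 8 genes passed an adjusted p of 0.05, nor did any entry (0%), while 1896 entries had an unadjusted p at or under 0.05 and DESeq2 called 398. Dcpp3 had the steepest slope, 0.13 ± 0.07 log2 per hour (SE), with an edgeR p of 0.0929 and an adjusted p of 0.624. The slope of Dcpp1 was 0.11 ± 0.07 log2 per hour and that of Sbpl 0.02 ± 0.06, with edgeR adjusted p of 0.689 and 0.954. Bpifa1 had 0.03 ± 0.04 and Bpifb1 -0.01 ± 0.06 log2 per hour, with edgeR adjusted p of 0.920 and 0.990. Without the 12 h library, the shallowest, the slope of Dcpp1 was 0.36 ± 0.11 log2 per hour with an edgeR adjusted p of 0.0468. Without the 6 h library, edgeR called 1873 entries and none of the 8 genes.

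**Figure D4:**
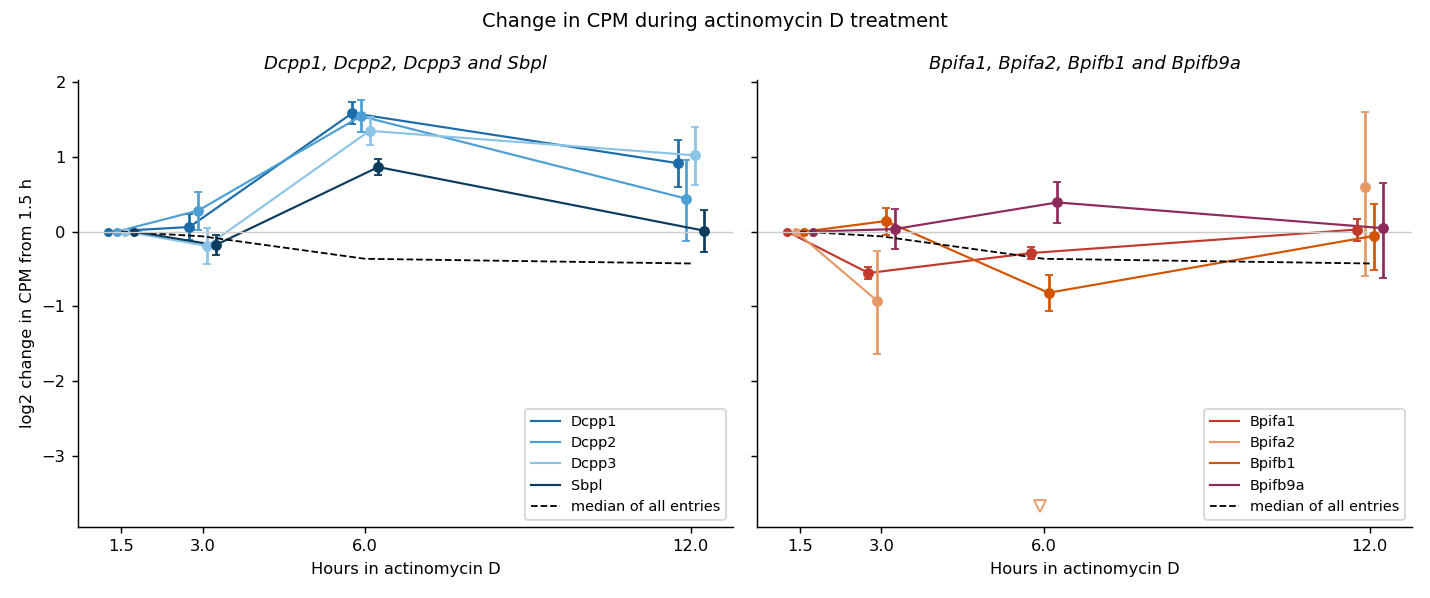
log2 change in CPM from 1.5 h at 3, 6 and 12 h of actinomycin D, 1 library a time, with exact 95% intervals for counting error, points shifted sideways for legibility. The dashed line is the median of all entries and the open triangle is Bpifa2 at 6 h, with 0 reads set to 3. Dcpp1, Dcpp2, Dcpp3 and Sbpl peak at 6 h above the dashed line, and the Bpif genes lie on both sides of it.

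The genes most like the 8 across the 9 libraries were picked by Pearson's r of log2 CPM with their mean profile, out of 16948 symbols with at least 100 reads in the best library. They were Krt13, a keratin of mucosal squamous epithelia (r = 0.996), Hoxb13, a homeobox gene of prostate and hindgut (0.994), Sbp (0.994), Glod5 (0.992), Mcpt1, a mast cell protease (0.991), and Bpifa5 (0.991). These libraries share cells, kits and depth in blocks, so r over 9 libraries is a description. Krt13 had 0.0420 CPM in the library labelled Aire-KO, 29.0 CPM in WT mTEChi, 33.3 CPM in mTEChi and 1.42 CPM in mTEClo. Of the 8 genes themselves, Bpifb9a was closest to the mean profile (r = 0.994), and Bpifa1 (0.890) and Bpifa2 (0.676) were farthest.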

How the data were processed

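Per the labels and the study's methods, the authors dropped reads failing the CASAVA filter, cut reads of the pairs to 50 bases, aligned to mm9 with Bowtie 1.0.0 and counted with bedtools the reads that lay wholly within RefSeq exons. The labels' kit does not mark strand. Deposited signal values of both pairs are reads divided by 1 DESeq size factor per library by the authors, called normalised counts here. Dividing these by the smallest value of a library gave whole numbers, which are the reads. The deposited counts of the actinomycin D series are raw reads per entry. The authors' own folds and p-values were not used, and 0 further sample columns were left out. Gene symbols, found for 98.1% of entries of the pairs, are those of RefSeq on GRCm38.p6.

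For each pair the fold is the ratio of normalised counts, with 0 reads set to 3 and a minimum of 10 normalised counts over both libraries, and at least 3-fold counts as lower or higher. Intervals are exact 95% binomial (folds) or Poisson (levels) intervals. PCR copies are not independent molecules, so these cover counting error only. Log2 changes under actinomycin D used CPM with 0.5 reads added, except that 0 reads were set to 3 where a bound is given. Slopes used edgeR 4.0.16 in R 4.3.3 (TMM, default filter), tested on simulated data, with DESeq2 1.42.0 as an alternative. Other steps used Python 3.11.15, numpy 2.4.6, pandas 2.3.3, scipy 1.17.1, biopython 1.88 and matplotlib 3.10.9.

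Transcript sequences and gene positions are from GENCODE vM1 on mm9, promoters from RefSeq on GRCm38.p6. All 8 genes matched a promoter. The 8 genes and the lists were chosen with earlier results of these data known. Named besides them are all BPI and jacalin relatives, the 4 most expressed genes of the salivary and the airway list, 6 flanking genes tested on each side and the 6 most similar symbols. Flanks, copies and the motif were added after the data were seen.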

Additional observations from a re-analysis of the deposited data

How the results depend on the processing

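All 8 genes stayed at least 3-fold lower in the library labelled Aire-KO under equal total reads, TMM factors, no minimum, 0.5 reads added, and with mTEChi of the other pair or the 0 h library as WT. Entries that low numbered 5655, and 2066 (edgeR) or 3747 (DESeq2) with 3 untreated WT mTEChi libraries as replicates and adjusted p in place of the fold limit. Between mTEChi and mTEClo, 3444 entries were at least 3-fold higher, against 475 (edgeR) and 1826 (DESeq2) called with those replicates. There 6 of the 8 genes were past 3-fold, and 8 with WT mTEChi of the Aire pair or the 0 h library as mTEChi. In the actinomycin D series, 5 genes had an interval above 1 at 6 h (31% of all entries had) and 2 at 12 h (19.7%), an alternative chosen after seeing the data, as was summing copies. With Bpifb9b added, Bpifb9a had a log2 change of -0.14 at 6 h, against 0.39 alone, and 4 genes had an interval above 1. At 12 h, Bpifa1 (log2 change 0.027) and Bpifa2 (0.596) lay above their 1.5 h level, whereas both were below it at 6 h. Slopes called 0 entries in edgeR and 398 in DESeq2. Leaving out 1 library in turn, edgeR called between 0 and 1873 entries, and between 0 and 1 of the 8 genes, the 1 being Dcpp1 without the 12 h library (605 entries). No paired analysis was possible because each group has 1 library. Depth limits Bpifa2 the most, with 9 reads at 12 h, where 3 reads are 1.72 CPM.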
